A study of Mus musculus with 3 samples.

Results

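The integrated stress response and the amino acid supply that it controls were followed through 33 genes, out of 56833 genes in the table. The genes were chosen by name, with earlier results of these data known, and all 33 have a row. RNA was sequenced from tdTomato-sorted cells of mouse ankle synovium, genotype Efhd1CreER; Ai9, in which a Cre recombinase driven from the Efhd1 gene switches on the reporter. The labels call them telocytes, an interstitial cell type with long processes. After sorting, the cells spent 24 h on collagen-coated plates. The softest plates measured 0.2 kPa, the intermediate ones 8 kPa and the stiff ones 64 kPa. Genotype, sort, coating and time were shared by the 3 groups. Each stiffness had 1 library. No difference below therefore has a replicate check, no p-value is given, and differences between cultures cannot be told apart from differences between stiffness levels. The labels do not say how many mice stand behind a library. The study asked whether matrix stiffness alters these cells.

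The integrated stress response is the shared answer of cells to several kinds of stress. Kinases that sense amino acid shortage, unfolded protein in the endoplasmic reticulum, viral RNA or heme shortage phosphorylate the initiation factor eIF2, which lowers protein synthesis in general while the transcription factor ATF4 is translated more. ATF4 and its partners then raise genes for amino acid synthesis and uptake, for serine and one-carbon metabolism, and for feedback on the pathway. In fibroblasts, glycine and proline made by these enzymes are building blocks of collagen. Much of ATF4 control acts on translation, which RNA levels do not show.

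ATF4 and C/EBP proteins bind a composite element whose core can be written TGATGNAA. It was searched on both strands in the RefSeq promoter windows (table build GRCm38.p6), which run from 250 bases before to 50 bases after a RefSeq start site. Of the 33 genes, 28 had a window in the table, and 10 of these 28 (35.7%) held the element, against 4.51% of 27025 genes, 3.97% of 32851 windows and 2.69% of the 9326 genes that averaged at least 50 normalized counts here. The stricter form TGATGCAA, which is part of the looser one, was found in 7 of the 28 (25.0%), against 1.03% of genes. The genes were picked as known members of this pathway, so the high share describes the choice. The ER stress element, CCAAT and CCACG with a gap of 9 bases, was in no window of these 28 genes, and in 0.137% of all genes. The stretches below, shown because they carry the element by which these genes are grouped further down, are printed 5′ to 3′ on the strand of the gene with the element in capitals. Where the capitals read TTGCATCA or TTACATCA, the element lies on the opposite strand. Positions are in GRCm39, found by exact match of each window to that genome, and the start sites are those of RefSeq.
Slc7a11 (chr3:50398066-50398164, minus strand): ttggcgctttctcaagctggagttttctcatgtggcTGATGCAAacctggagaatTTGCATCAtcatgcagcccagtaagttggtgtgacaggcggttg
Chac1 (chr2:119181494-119181573, plus strand): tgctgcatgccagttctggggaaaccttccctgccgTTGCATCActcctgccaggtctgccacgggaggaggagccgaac
Nupr1 (chr7:126224709-126224788, minus strand): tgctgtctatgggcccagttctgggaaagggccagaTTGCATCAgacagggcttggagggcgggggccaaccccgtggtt
Pycr1 (chr11:120534634-120534713, minus strand): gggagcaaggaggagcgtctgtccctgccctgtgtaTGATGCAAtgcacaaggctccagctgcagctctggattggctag
Slc1a4 (chr11:20282674-20282753, minus strand): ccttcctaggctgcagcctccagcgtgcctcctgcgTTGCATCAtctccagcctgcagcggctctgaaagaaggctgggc
Vldlr (chr19:27194184-27194263, plus strand): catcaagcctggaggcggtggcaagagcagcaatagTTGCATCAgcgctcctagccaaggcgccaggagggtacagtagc
Asns (chr6:7693189-7693268, minus strand): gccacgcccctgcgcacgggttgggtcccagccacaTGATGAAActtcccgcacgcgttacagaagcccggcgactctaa
Trib3 (chr2:152185931-152186002, minus strand): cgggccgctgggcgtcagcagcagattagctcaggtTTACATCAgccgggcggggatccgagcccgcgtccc
Slc7a11 was the only one of the 10 with a pair of matches, in opposite orientation and 11 bases apart, at 66 to 59 and 47 to 40 bases before the start site. In Trib3 the match lay inside the transcribed part, and in Slc1a4 it spanned the start site. Fgf21 (stricter form) and Pck2 (looser form) were the others. A match is a description of letters and not a site shown to be bound.

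The soft library held 25487064 reads, the intermediate one 28081600 and the stiff one 26474862. Values are normalized counts, gene counts that the authors divided by a size factor per library, and 1 read was worth 0.943 to 1.03 of them. Log2 ratios carry a pseudocount of 1. Intervals are exact 95% Clopper-Pearson intervals of how the reads of a gene split between 2 libraries, which cover counting error only and leave out variation between cultures. In these libraries ratios varied with transcript length and with GC content, so beside the stiff to soft ratios of the 33 genes a second ratio, with that trend subtracted, is given wherever it differs by more than 1.5 times or in sign. The cells expressed fibroblast-type genes at high levels (Col1a1, 78648 normalized counts in the soft library) and the telocyte-associated genes Pdgfra (5884) and Cd34 (235), but Efhd1 itself had only 10.3, 4.71 and 3.08 normalized counts in order of stiffness, and Kit (42.0 on soft) and Gli1 (9.23) were low as well. Of the 8 telocyte markers 5 averaged at least 50, of which 2 were above 0 and 3 below between stiff and soft, none by 0.5. Of all 11873 genes averaging at least 50, 6064 were above 0 and 5809 below in that comparison. All 15 macrophage markers were present and none was at 0. Their summed level was 31170 normalized counts on soft, 38654 on intermediate and 67113 on stiff plates, and 13 of the 15 were higher by a log2 ratio of at least 0.5 between stiff and soft. All 15 were also above 0 between intermediate and soft, against 6348 of 11873 genes. Of the 15, 5 were higher by at least 0.5 there, against 3.94% of all genes. These macrophage differences run beside every difference between libraries below, and their part in them was not tested. In bulk RNA, fewer cells of a type and less RNA per cell cannot be told apart. Of 7 markers of T, B and mast cells, 6 had no read. Of 10 fibroblast markers, 6 were above 0 and 4 below between stiff and soft, so their summed level (224010, 270296 and 324722 normalized counts from soft to stiff) does not speak for the list. At a ratio of at least 0.5, which 11.8% of all genes passed upward and 3.77% downward, 2 of these 10 were higher and 1 lower, or 1 and 0 with the trend subtracted. Of 4 mural markers measured 2 were higher, or 1 higher and 1 lower with the trend subtracted. With or without the trend, 1 of 2 muscle markers was higher, and of 2 Schwann cell markers 1 was higher and 1 lower. None of 6 endothelial markers averaged 50 normalized counts. Of 10 proliferation markers 8 were below 0, and they summed to 25380, 25646 and 21271. The part of these lists in the differences was not tested either.

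Between stiff and soft, the transcription factors and feedback genes of the response were the group with the highest median ratio (0.61), other enzymes (0.42) and the serine and one-carbon enzymes (0.32) came next, and the transporters (0.15) were mixed. Of the 32 genes whose mean was 50 normalized counts or more (all but Fgf21), 26 were above 0 and 6 below. Of all 11873 genes past that minimum, 6064 were above 0 and 5809 below. The following counts are of the 32 genes. None reached a log2 ratio of 1 in either direction, against 3.22% of 11873 genes higher and 0.387% lower. At a log2 ratio of at least 0.5, 10 of the 32 were higher (Atf4, Atf5, Ddit3, Cebpb, Trib3, Ppp1r15a, Chac1, Cth, Slc7a5 and Gdf15), against 11.8% of all genes. Only Stc2 was lower at that size, against 3.77%. The threshold of 0.5 was added because earlier results of these data had shown moderate shifts of these genes. Counts at 0.5 beside the all-gene share are therefore description and not independent support. The median ratio over the 32 was 0.35, beside 0.00 over all genes averaging at least 10. After subtraction of the length and GC trend, the same 10 genes were higher and Stc2 lower, against 7.73% and 4.02% of 11767 genes, and the median was 0.32. The counting interval lay above 0 for 22 of the 32 and below 0 for 5, against 31.3% and 25.9% of all genes. The median transcript length of the 32 was 2397 nt, with a median of 54.5% GC, against 3474 nt and 50.1% for genes past the same minimum.

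**Figure D1:**
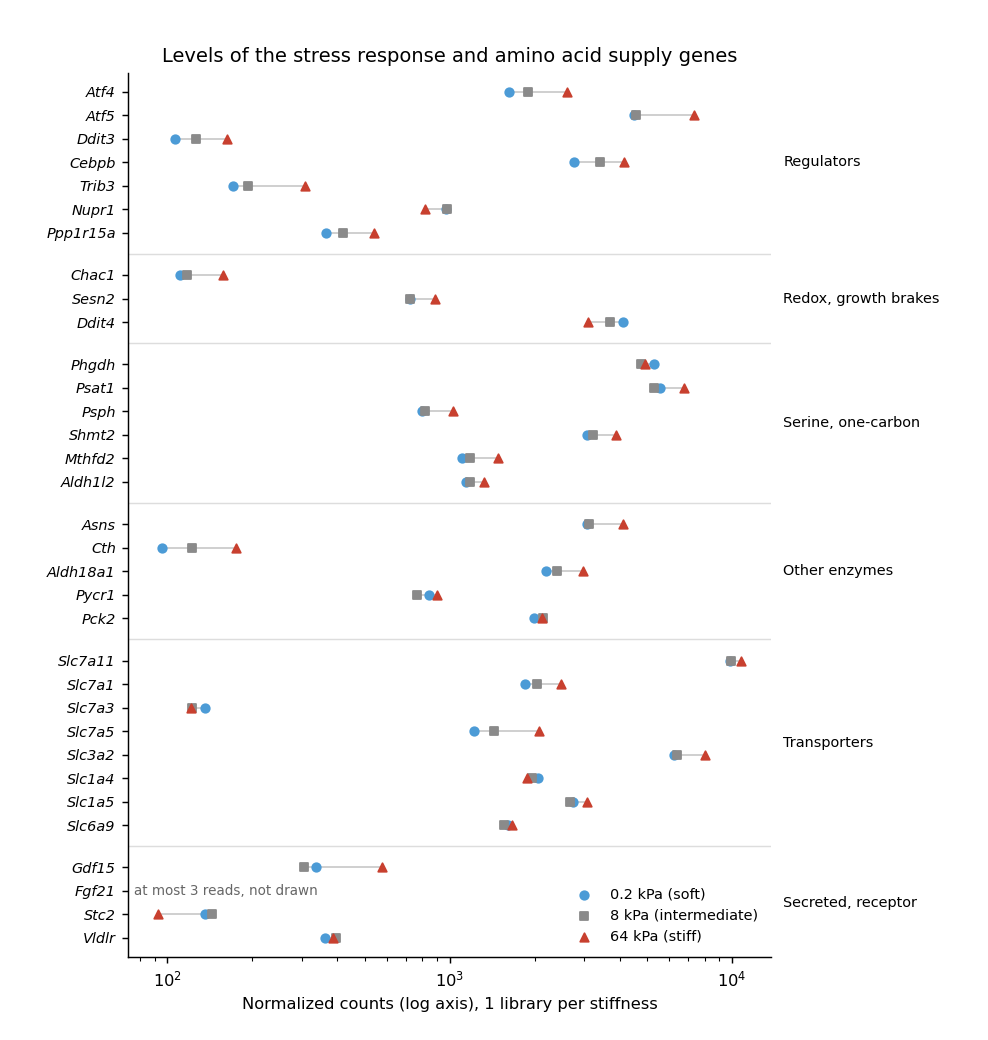
Normalized counts (log axis) of the 33 genes in the soft (blue circles), intermediate (grey squares) and stiff (red triangles) library, 1 library each, grouped by role. The stiff library is the highest of the 3 for 24 of the 32 genes drawn, against 42.2% of all genes, and Fgf21, with at most 3 reads, is not drawn.

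The regulators come first. Atf4, the transcription factor at the centre of the response (chromosome 15, 80139372 to 80141745, plus strand, 3 exons), had 1615 normalized counts on soft, 1896 on intermediate and 2601 on stiff plates. The stiff value was 61.1% above the soft one, a log2 ratio of 0.69 with an interval from 0.60 to 0.78. Each library was thus higher than the softer one before it. Atf5, a related factor induced by the same mechanism of translation (chromosome 7, 44461680 to 44466082, minus strand, 3 exons), had 4493, 4583 and 7351 normalized counts in the same order. Soft and intermediate did not differ beyond counting error (0.03, interval from -0.03 to 0.09), and the stiff to soft ratio was 0.71 (0.66 to 0.76). Cebpb, whose product pairs with ATF4 on the element shown above, had 2748, 3411 and 4146 normalized counts. Its stiff to soft ratio was 0.59 (0.52 to 0.66), and its first step was 0.31 (0.24 to 0.38).

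Ddit3, which encodes CHOP, the factor tied to cell death under lasting stress, was low, with 107, 126 and 163 normalized counts. Its stiff to soft ratio was 0.61, with a wide interval from 0.25 to 0.98. GENCODE vM39 holds another gene record of the name Ddit3 inside the gene on the same strand, which shares 105 exonic bases (1.88%), so this count is uncertain. Trib3, a pseudokinase that is a CHOP target and dampens ATF4, had 171, 192 and 307 normalized counts. With a ratio of 0.84 (0.56 to 1.12) it was the highest of the regulators. Ppp1r15a encodes GADD34, the phosphatase subunit that removes the phosphate from eIF2 and ends the response. It had 364, 418 and 540 normalized counts and a stiff to soft ratio of 0.57 (0.37 to 0.77). Nupr1, a small stress-induced chromatin protein, went the other way, with 967 and 979 normalized counts on soft and intermediate plates and 815 on stiff ones. Its ratio of -0.25 (-0.38 to -0.11) was -0.09 with the trend subtracted.

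Of these 7 regulators, 6 were thus higher by at least 0.5 and 1 was below 0, with a median ratio of 0.61, where 11.8% of all genes were higher by that size. The same 6 stood at 0.52 to 0.81 with the trend subtracted, where 7.73% of all genes reached 0.5. Atf3, another stress factor and not one of the 33, had 240, 333 and 427 normalized counts and a ratio of 0.83 (0.60 to 1.07).

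Among genes that act as brakes, the values parted, with 2 genes above 0 and 1 below. Chac1, a CHOP and ATF4 target that breaks down glutathione, had 111, 117 and 158 normalized counts, and its ratio of 0.51 (0.15 to 0.88) lay just past the threshold. Sesn2, which holds back mTORC1 when leucine is short, had 721, 725 and 884 normalized counts. Its ratio of 0.29 (0.15 to 0.44) shrank to 0.02 with the trend subtracted. Ddit4, or REDD1, an inhibitor of mTORC1 under stress and low oxygen, was lower at each step, with 4110, 3696 and 3085 normalized counts. Its stiff to soft ratio was -0.41 (-0.48 to -0.35), and -0.43 with the trend subtracted. Sesn1 and Sesn3, relatives of Sesn2, were also below 0, at -0.41 (-0.58 to -0.24) and -0.41 (-0.50 to -0.31, and -0.53 with the trend subtracted).

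The enzymes that make serine and glycine and feed mitochondrial one-carbon units had similar ratios of 0.22 to 0.42, apart from the first one. Phgdh, which commits a glycolytic intermediate to serine, had 5292, 4773 and 4920 normalized counts and a stiff to soft ratio of -0.11 (-0.16 to -0.05). The next enzyme, Psat1, had 5553, 5285 and 6778 normalized counts and a ratio of 0.29 (0.24 to 0.34). Psph, the last of the pathway, had 800, 815 and 1024 normalized counts and a ratio of 0.36 (0.22 to 0.49). The first enzyme was thus highest in the soft library, with intermediate and stiff within counting error of each other (0.04, interval from -0.01 to 0.10), while the other two were highest in the stiff one.

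Shmt2, which splits serine into glycine and a one-carbon unit in mitochondria, had 3054, 3207 and 3890 normalized counts and a ratio of 0.35 (0.28 to 0.42). Mthfd2, which oxidises that unit, had 1107, 1182 and 1478 normalized counts and a ratio of 0.42 (0.30 to 0.53). Aldh1l2, which can burn the unit to carbon dioxide, had 1140, 1178 and 1327 normalized counts, with a ratio of 0.22 (0.10 to 0.34), and 0.14 with the trend subtracted. No gene of these 6 reached 0.5, where 11.8% of all genes did, and their median was 0.32 with or without subtraction. Cytosolic counterparts, which are not among the 33, differed in sign, with Shmt1 at -0.32 (-0.55 to -0.08) and Mthfd1 at 0.26 (0.16 to 0.36).

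Of the remaining enzymes, Cth showed the largest ratio of all 32 genes. It encodes cystathionine gamma-lyase, which makes cysteine from methionine sulphur. It had few reads, 93, 130 and 171 from soft to stiff, or 95.3, 123 and 175 normalized counts. The ratio was 0.87 with an interval from 0.51 to 1.26, and 1.02 with the trend subtracted. Asns, the asparagine synthetase that is a classic ATF4 target, had 3052, 3105 and 4093 normalized counts and a ratio of 0.42 (0.35 to 0.49). Soft and intermediate were within counting error (0.02, interval from -0.05 to 0.10, and -0.01 with the trend subtracted), and the stiff library was the high one.

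Aldh18a1 and Pycr1 make proline from glutamate. Aldh18a1, the first enzyme, had 2186, 2391 and 2963 normalized counts and a ratio of 0.44 (0.36 to 0.52). Pycr1, the last, had 847, 766 and 900, and its ratio of 0.09 (-0.05 to 0.23) was not distinguishable from 0 by counting error. Pck2, which links mitochondrial oxaloacetate to glucose and serine synthesis, had 1993, 2142 and 2114 normalized counts. Its ratio of 0.08 (-0.01 to 0.17) turned to -0.04 with the trend subtracted.

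**Figure D2:**
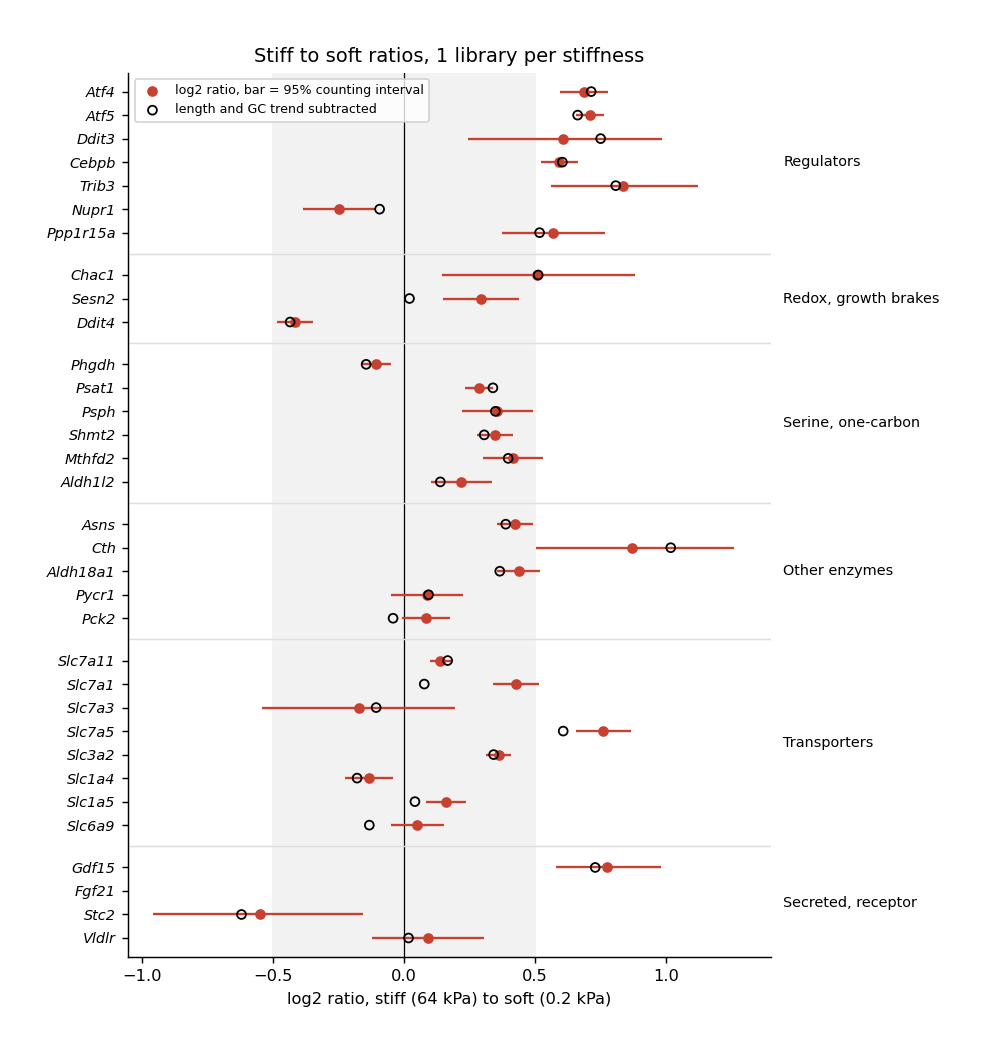
Log2 ratio of the stiff to the soft library for 32 genes (red points) with 95% counting intervals (bars), and the same ratio with the length and GC trend subtracted (open circles). The grey band marks ratios under 0.5 in size. The 6 higher regulators lie right of the band, most enzymes lie inside it above 0, and the open circles of Sesn2 (0.02) and Slc7a1 (0.08) stand apart from their red points.

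Transporters bring the amino acids in. Slc7a5 (LAT1) carries leucine and other large neutral amino acids and is the light chain of a pair whose heavy chain is Slc3a2. Slc7a5 had 1218, 1435 and 2065 normalized counts, 69.6% more in the stiff than in the soft library. Its ratio was 0.76 (0.66 to 0.87), and 0.61 with the trend subtracted. Slc3a2 had 6247, 6373 and 8031 normalized counts and a ratio of 0.36 (0.31 to 0.41). Slc7a11 (xCT), which shares that heavy chain and imports cystine for glutathione, was the gene with the most counts of the 33, at 9801, 9939 and 10795. Its ratio of 0.14 (0.10 to 0.18) was small.

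Levels of different genes can be compared only per length, here in TPM, which are reads per base of the canonical transcript scaled to a fixed sum in every library. Slc3a2 stood at 211, 217 and 272 TPM from soft to stiff. The summed level of the 5 light chains Slc7a5, Slc7a6, Slc7a7, Slc7a8 and Slc7a11 was 207, 225 and 264 TPM. Heavy chain per light chain was thus 1.02, 0.966 and 1.03. The makeup of the light chains shifted, with 3.07 transcripts of Slc7a11 per transcript of Slc7a5 on soft, 2.64 on intermediate and 1.99 on stiff plates. These TPM levels are without the trend subtraction, which narrows the shift. The stiff to soft ratios were 0.14 for Slc7a11 and 0.76 for Slc7a5, or 0.17 and 0.61 with the trend subtracted. Slc7a8 (LAT2), which is outside the 33, had 774, 1083 and 1726 normalized counts and a ratio of 1.16 (1.03 to 1.28), the highest of 15 other amino acid transporters measured.

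Slc7a1, the main importer of arginine and lysine, had 1844, 2032 and 2483 normalized counts. Its ratio of 0.43 (0.34 to 0.52) was 0.08 with the trend subtracted. Slc7a3, a related cationic transporter, was low, with 136, 123 and 121 normalized counts and a ratio of -0.17 (-0.54 to 0.20), or -0.11 with the trend subtracted. Slc1a5, which exchanges glutamine, had 2730, 2661 and 3053 normalized counts and a ratio of 0.16 (0.09 to 0.24), or 0.04 with the trend subtracted. Slc1a4, which exchanges serine and alanine, had 2062, 1950 and 1882 and a ratio of -0.13 (-0.22 to -0.04). The glycine transporter Slc6a9 had 1607, 1555 and 1665, and its ratio of 0.05 (-0.05 to 0.15) turned to -0.13 with the trend subtracted. Of the 8 transporters only Slc7a5 reached 0.5, a share near the 11.8% of all genes, and the group's median was 0.15, or 0.06 with the trend subtracted.

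The secreted products Gdf15 and Stc2 had ratios of opposite sign. Gdf15, a stress hormone that acts on the brain to reduce appetite (chromosome 8, 71082038 to 71091537, minus strand, 2 exons), had 335 normalized counts on soft, 304 on intermediate and 575 on stiff plates. The soft and intermediate values did not differ beyond counting error (-0.14, interval from -0.37 to 0.08). The stiff to intermediate ratio was 0.92 (0.72 to 1.12), the largest single step of the 32 genes, and the stiff to soft ratio was 0.78 (0.58 to 0.98). Stc2, a secreted glycoprotein that ATF4 induces in other cells, had 135, 144 and 92.3 normalized counts. It was lowest in the stiff library, with a ratio of -0.55 (-0.96 to -0.15) resting on 132 reads on soft and 90 on stiff plates. Fgf21, a hormone made mainly by liver, had 0, 2 and 3 reads, at or under the 3 reads that a count of 0 allows, and no fold is given. Vldlr, a lipoprotein receptor that ATF4 can raise, had 363, 394 and 387 normalized counts and a ratio of 0.09 (-0.12 to 0.30), or 0.02 with the trend subtracted.

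The median ratio was 0.04 in the first step, from 0.2 to 8 kPa, and 0.29 in the second, from 8 to 64 kPa. Between intermediate and soft, 0 of the 32 genes reached 0.5 in either direction, against 3.94% of all genes higher and 0.657% lower, and with the trend subtracted again 0, against 2.14% and 0.688%. None reached 1, against 0.16% and 0.00842%. The median ratio was 0.04, beside 0.01 for all genes. The counting interval lay above 0 for 6 and below 0 for 4, against 21.8% and 13.5% of all genes. All 7 regulators were above 0 in this step, against 6348 of 11873 genes. Their median was 0.20, but only for Atf4 (0.23) and Cebpb (0.31) did the counting interval exclude 0. The ratios of Atf5 (0.03) and Nupr1 (0.02, or 0.08 with the trend subtracted) turned below 0 when the libraries were scaled by the upper quartile.

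Between stiff and intermediate, 5 of the 32 were higher by at least 0.5 (Gdf15, Atf5, Trib3, Slc7a5 and Cth), against 5.42% of all genes, and Stc2 was lower at -0.64, against 3.42%. With the trend subtracted 4 were higher, without Slc7a5, and Stc2 lower, against 4.62% and 3.36%. None reached 1, against 0.825% and 0.421%. The median was 0.29, beside 0.01 for all genes, and 0.24 with the trend subtracted. The counting interval lay above 0 for 23 and below 0 for 3, against 26.3% and 22% of all genes. In size, the second step was the larger one for 26 of the 32 genes, against 60% of all genes. It was the larger one for 9 of the 10 that were higher between stiff and soft, against 59.8% of the 1402 genes that were. Cebpb was the exception, with 0.31 and then 0.28. Cebpb and Cth were the 2 genes with at least 0.25 in both steps, against 5.73% of all genes. None had that size downward in both, against 0.707%. For Cth the first step, 0.36 (-0.03 to 0.76), was not distinguishable from 0 by counting error, and the second was 0.51 (0.18 to 0.86). The 2 steps share the intermediate library, so they are given side by side and not correlated.

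**Figure D3:**
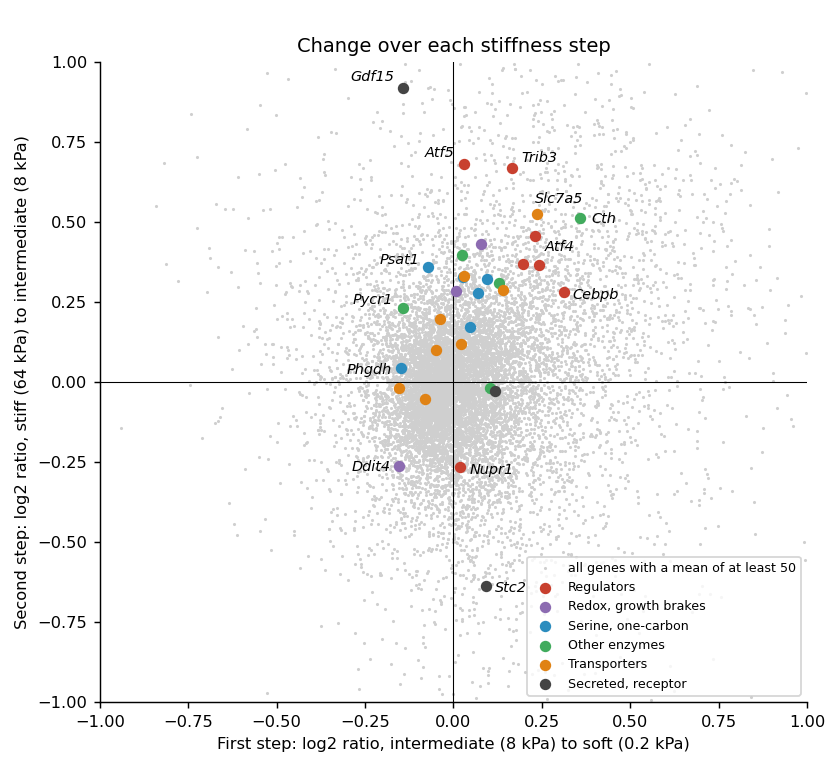
Log2 ratio of the second step (stiff to intermediate, vertical) against the first (intermediate to soft, horizontal), with the 32 genes coloured by role over all genes averaging 50 or more (grey, those within 1 in both steps). Most coloured points lie near 0 horizontally and above 0 vertically, with Gdf15 (0.92) highest and Stc2 (-0.64) lowest.

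Per length, the 33 genes covered a wide range in the soft library. Phgdh was the highest at 241 TPM, followed by Atf5 at 214, Slc3a2 at 211, Ddit4 at 202 and Psat1 at 183. Phgdh stood at percentile 95.3 of the genes averaging at least 10 normalized counts. In the stiff library Atf5 was at 350 and Slc3a2 at 272, followed by Cebpb at 238 and Phgdh at 225. Ddit3, Trib3 and Chac1 ranked 26, 27 and 28 of the 33 in the soft library, at 9.41, 7.07 and 5.75 TPM. Among the genes averaging at least 10 they stood at percentiles 43.4, 38.0 and 34.3. In the stiff library they had 14.4, 12.7 and 8.22 TPM. Atf4 lay between these and the highest genes, at 80.1, 94.9 and 129 from soft to stiff. Stc2 was the lowest with reads in every library, at 2.94 in the soft and 2.00 in the stiff one.

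Genes with the element in the promoter window had the lower median ratio. Over the 9 measured genes with TGATGNAA in their window, the median stiff to soft ratio was 0.09, with a range from -0.25 (Nupr1) to 0.84 (Trib3), and 2 of the 9 reached 0.5, against 11.8% of all genes. Over the 18 with a window and no match, the median was 0.39, with a range from -0.55 to 0.78. Of these, 6 were higher and 1 (Stc2) lower by at least 0.5, against 11.8% and 3.77% of all genes. Those higher were Gdf15 and the regulators Atf4, Atf5, Ddit3, Cebpb and Ppp1r15a, so the split overlaps with the grouping by role. The 6 with the stricter form were Slc7a11, Chac1, Nupr1, Pycr1, Slc1a4 and Vldlr, with a median of 0.09, and Chac1 alone of them reached 0.5. Slc7a11, with its pair of matches, had 0.14. This split was not tested, the groups overlap, and a window without these letters says nothing about elements farther away. Of 5 genes without a window, Cth and Slc7a5 were past 0.5.

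**Figure D4:**
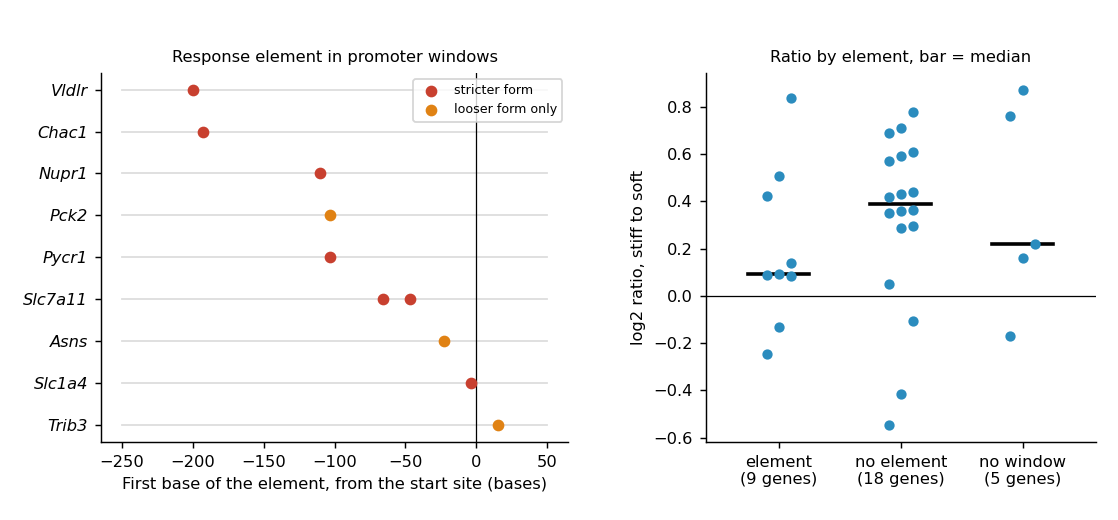
Left, distance of the element from the RefSeq start site in bases for the 9 measured genes that hold it, red for the stricter and orange for the looser form. Right, log2 ratio of stiff to soft by whether the window holds the element, with medians (bars) of 0.09 with it, 0.39 without it and 0.22 where no window was in the table.

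Other genes of the pathway were read from lists, named with earlier results of these data known. The kinases and the factor they act on came from a list of 13 genes. Of these 13 genes for eIF2 kinases, eIF2, its exchange factor eIF2B and the constitutive phosphatase subunit, 0 reached 0.5 in either direction, against 11.8% of all genes higher and 3.77% lower, and the median was 0.03. The 4 kinases, of which Eif2ak2, Eif2ak3 and Eif2ak4 were named after their values were seen, had ratios of 0.18 for Eif2ak1 (heme), -0.03 for Eif2ak2 (double-stranded RNA), 0.04 for Eif2ak3 (PERK, unfolded protein) and -0.07 for Eif2ak4 (GCN2, amino acids). With the trend subtracted these were 0.13, 0.04, -0.09 and -0.21. The highest of the list was Eif2b3 at 0.31 (0.18 to 0.45), and the lowest were Eif2b2 at -0.08 and Eif2b5 at -0.07.

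Aminoacyl-tRNA synthetases, which charge tRNAs and include many ATF4 targets, had a median ratio of 0.27. Of 20 cytosolic ones 18 were above 0, against 6064 of 11873 genes. Of the 20, 2 reached 0.5 and none was lower at that size. As 11.8% of all genes were higher by 0.5, that count is near the background. Eprs, which charges glutamate and proline, had 1789, 2239 and 2839 normalized counts and a ratio of 0.67 (0.58 to 0.75). Iars, for isoleucine, had 2493, 2921 and 3582 and a ratio of 0.52 (0.45 to 0.60), or 0.48 with the trend subtracted. Qars and Dars were below 0, at -0.13 and -0.07, and Dars turned to 0.05 with the trend subtracted.

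Of 15 other amino acid transporters measured, 2 were higher and 1 lower by at least 0.5, near the 11.8% and 3.77% of all genes. The median over the 16 averaging at least 10 was 0.15. Besides Slc7a8, Slc16a10 had 0.52 (0.30 to 0.74, and 0.46 with the trend subtracted). Slc38a4 had -0.58 (-0.87 to -0.30, and -0.49 with the trend subtracted), and Slc38a2, an abundant ATF4-responsive carrier of neutral amino acids, had 13014, 11472 and 11460 normalized counts and a ratio of -0.18, or -0.11 with the trend subtracted. Of 17 other folate and amino acid enzymes, 0 reached 0.5 in either direction, and the highest was the glutamine synthetase Glul at 0.47 (0.42 to 0.53), which was 0.51 with the trend subtracted. Of 18 other genes linked to ATF4, Atf3 was the only one past 0.5, and the median was 0.05. With the trend subtracted Atf3 was higher and Sesn3 lower (-0.53) by that size, against 7.73% and 4.02% of all genes. The median was then 0.03. Of 20 genes for the other arms of the unfolded protein response, Syvn1 was the only one past 0.5, at 0.58 (0.46 to 0.70), or 0.39 with the trend subtracted, and the median was 0.14. Sdf2l1 had 0.49, or 0.58 with the trend subtracted. Dnajc3 and Creld2 were the lowest of these 20, at -0.05 and -0.03, and Creld2 turned to 0.05 with the trend subtracted. In none of these last 3 lists was the share past 0.5 above the 11.8% of all genes.

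**Figure D5:**
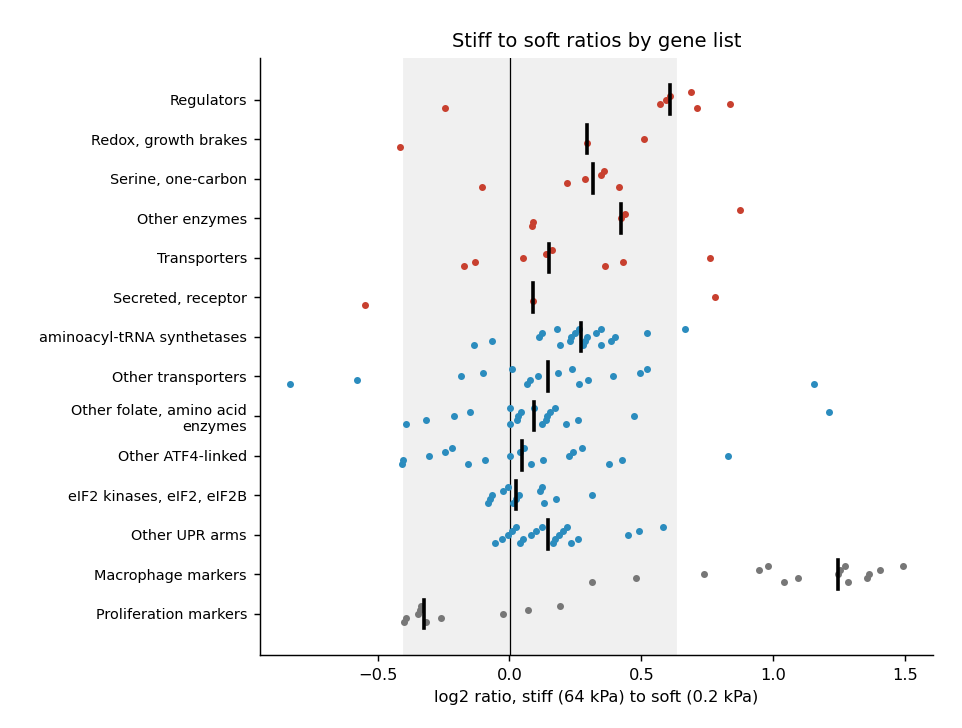
Log2 ratio of stiff to soft for genes averaging at least 10 normalized counts, by list: the 33 genes by role (red), other lists of the pathway (blue) and markers (grey), with medians as black bars. The grey band spans the 10th to 90th percentile of all genes (-0.40 to 0.63). The regulators' median (0.61) is near the upper edge of the band, that of the eIF2 list (0.03) is near the all-gene median (0.00), and that of the macrophage markers (1.25) is beyond the band.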

How the data were processed

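RNA of 3 libraries was sequenced after stranded poly(A) library preparation, per the labels' protocols. The submitters' processing notes name bcl2fastq 2.20.0, STAR 2.7.9a, featureCounts, Subread 2.0.1, DESeq2 1.34.0 and the build GRCm39; the annotation used for counting is not given in the sources used here. The deposited signal values are gene counts that the authors divided by 1 size factor per library. The 3 files were identical, and 1 table was used, with columns assigned by sample title and 0 columns left unassigned. Division by the value of 1 read gave whole numbers (within 0.01) for 100.0% of the entries, so reads were recovered. A count test needs replicates and was not made.

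Genes were counted at a log2 ratio of at least 1 or 0.5 if they averaged 50 normalized counts or more, and medians took genes averaging at least 10. Canonical transcript lengths and GC contents came from GENCODE vM39 (GRCm39), matched by symbol, identifier or synonym. The trend was fitted locally on transcript length and GC content (14117 genes, neighbourhoods of 300) and subtracted. Counts at a log2 ratio of 1, intervals and the fit were tested on simulated data, in which the libraries carried counting noise only. Counts at 0.5 were not simulated. Alternatives were pseudocounts of 0.1 and 10, other minimum means, scaling by total reads or by the upper quartile, and the trend subtraction. Named genes were all 33 and, from each other list, genes among the 2 highest and 2 lowest ratios; Eif2ak2, Eif2ak3, Eif2ak4, Slc7a6, Slc7a7 and the marker genes were named outside this rule, after their values were seen. The members, the lists and the threshold of 0.5 were chosen with earlier results of these data known. Tools were scipy 1.17.1, scikit-learn 1.9.0, numpy 2.4.6, pandas 2.3.3 and matplotlib 3.10.9 under Python 3.11.15.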

Additional observations from a re-analysis of the deposited data

How the results depend on the processing

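Each stiffness had 1 library, so leaving out a replicate was not run. No paired analysis was possible because each group had 1 library. Over the alternatives run, the median ratios of the 33 genes were 0.30 to 0.36 for stiff against soft, 0.00 to 0.05 for intermediate against soft and 0.24 to 0.29 for stiff against intermediate. The count of genes past 0.5 in either direction between stiff and soft, 11 as reported, was 7 with a mean of at least 200, because that minimum leaves out Ddit3, Chac1, Cth and Stc2, and 10 to 12 under the others, with Chac1 under 0.5 with both scalings (0.45) and with a pseudocount of 10 (0.48). The count past 1 was 1 with the trend subtracted (Cth) and 1 without a filter (Fgf21, at 3 reads against 0). Between intermediate and soft it was 1 without a filter at either threshold, again Fgf21. Between stiff and intermediate 4 to 6 genes passed 0.5. Both scalings shifted the median ratio of stiff to soft over all genes by -0.06. Of 492 gene ratios under alternatives, 467 stayed inside their counting interval, 20 changed sign, and none of those past 0.5 did. Depth limits Fgf21, Cth, Ddit3, Chac1, Stc2 and Slc7a3, with under 200 reads in each library.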

Other observations

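Amino acid supply is also read by mTORC1, through GTPases and their regulators at the lysosome. A list of 29 genes of this machinery was written after the data had been examined. Of the 28 that averaged 50 normalized counts or more, 12 were above 0 and 16 below between stiff and soft. Among all 11873 such genes these counts were 6064 and 5809. The median over the 29 was -0.01. With the length and GC trend subtracted 8 were above 0 and 20 below, against 5863 and 5904 of 11767 genes. The median over the 29 was then -0.09. Mtor, the kinase itself, had 543 normalized counts on soft, 766 on intermediate and 850 on stiff plates, a log2 ratio of 0.64 (counting interval from 0.49 to 0.81) that was -0.01 with the length and GC trend subtracted. Tsc2, which restrains the pathway, had a ratio of 0.52 (0.41 to 0.62), or 0.10 with the trend subtracted. Rragd, a GTPase of the amino acid sensor, was low, with 76.9, 65.0 and 45.1 normalized counts and a ratio of -0.76 (-1.34 to -0.21), or -0.80 with the trend subtracted. At a ratio of at least 0.5 the list thus had 2 genes higher and 1 lower, against 11.8% and 3.77% of all genes, and with the trend subtracted 0 higher and 1 lower, against 7.73% and 4.02%.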
